A study of Mus musculus with 8 samples.

Results

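The genes described here are the cytosolic ribosomal protein (RP) genes of mouse embryonic fibroblasts (MEFs), chosen by symbol alone: every gene whose name is Rpl or Rps followed by a number, with or without the a, x or l endings. This pattern found 81 of the 24460 genes in the count tables, 49 of the large (60S) subunit and 32 of the small (40S) subunit, and 8 of the 81 were paralogs that carry an l or l1 ending. The MEFs were wild type and were grown in high-glucose medium with 0, 2 or 10 µM RHPS4, an acridinium salt that binds G-quadruplexes, the 4-stranded structures that G-rich DNA or RNA can fold into. RNA-Seq covered 3 untreated libraries, 3 at the lower and 2 at the higher dose, and the labels give exposures of 16 or 24 h without saying which applies to these libraries. Whether libraries of a dose came from separate cultures is not given in the sources used here, so the p-values below measure only the spread between these samples, which may be technical.

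Each cytosolic ribosome is built from a fixed set of RPs, so a cell makes the proteins of both subunits in matched amounts, and their mRNAs are among the most abundant and steady of any mammalian cell. RP mRNAs begin with a stretch of pyrimidines, the 5' terminal oligopyrimidine (TOP) tract, through which mTOR and the binding protein Larp1 set their translation. A few RPs also have paralogs that can replace them in the ribosome, and several of these paralogs are known for expression in particular tissues.

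The libraries held 10455965 to 26688121 counts, of which 420742 to 906838 fell in RP genes. Summed markers of fibroblasts, such as collagens and Vim, reached 11100 to 13300 CPM (counts scaled to a common library size), against at most 4.76 CPM for epithelial, 5.47 CPM for endothelial, 10.4 CPM for blood and 1.73 CPM for muscle markers, while neural markers summed to 88.6 to 125 CPM. The share of counts from mitochondrial DNA was 13.2% to 14.4% at 0 µM, 7.4% to 8.26% at 2 µM and 5.33% to 6.32% at 10 µM, so the RP share is given below over nuclear genes. The untreated libraries differed for the RP genes. In the first, which had the fewest counts of all 8 libraries (10455965), the median RP gene lay 0.14 above its own mean over all libraries on the log2 scale. It lay 0.17 and 0.14 below that mean in the other 2, which had the most counts (21057338 and 26688121). In the first 2 µM library, with 11391061 counts, it also lay 0.14 above. Other genes with transcripts of up to 1 kb moved the same way with a smaller size, at 0.07 in the first untreated library and -0.07 in each of the other 2. The other TOP mRNAs and translation factors described below had median deviations of 0.11, -0.13 and -0.11 in the 3 untreated libraries, close to those of the RP genes, and the part of this in the RP results was not tested.

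Of the 81 genes, 77 passed the filter on low counts, 46 of the large and 31 of the small subunit. The 4 that did not were Rpl3l, a striated muscle paralog, with 2 to 13 counts in a library, Rpl10l, a testis paralog, with 0 to 2 counts, Rps4l with 1 to 5 counts, and Rpl26, a core 60S protein, with 0 to 2 counts. At most 3 counts corresponded to 0.119 to 0.311 CPM in these libraries, and these ranges carry counting error only. The counts of Rpl26 therefore stood apart from those of the other 60S genes, although no more than 57.5% of the 75-base stretches of its transcript occur in another annotated transcript, and 31 tested members have over 60% shared. Such stretches matter because RP genes have many processed pseudogenes, and the study's methods describe the counts as those of uniquely mapped fragments.

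In untreated cells the levels of RP mRNAs per kb of transcript spanned a wide range. Without the paralogs, the large subunit genes had a median of 616 CPM per kb (quartiles 422 and 818, n = 42 genes) and the small subunit genes a median of 670 CPM per kb (quartiles 437 and 934, n = 30 genes). The highest of the large subunit were Rpl32 with 1818 ± 311 CPM per kb (SD, n = 3 libraries), Rpl41 with 1707 ± 192 and Rpl8, which lies beside the peptidyl transferase centre, with 1517 ± 232, followed by Rpl9 and Rpl19. Those of the small subunit were Rps12 with 3045 ± 530 CPM per kb, Rps28 with 1722 ± 209 and Rps18 with 1443 ± 181, followed by Rps2 and Rps25. Among the high genes, neighbours such as Rpl32, Rpl41 and Rpl8 differed by less than their SDs added together, while Rps12 stood clear of Rps28.

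At the low end of the same scale stood Rpl30 with 2.63 ± 0.749 CPM per kb, Rps27 with 7.12 ± 0.174, Rpl34 with 10.3 ± 2.8, Rps16 with 45.6 ± 13.4 and Rpl29 with 54.8 ± 5.07. Rps27 rested on 23 to 63 counts in a library, Rpl30 on 13 to 35 and Rpl34 on 60 to 98, whereas the other 74 tested members had at least 300 counts everywhere. Of the transcript of Rps27, 98.5% is shared with other annotated transcripts, among them its retrogene Rps27rt, while 40.1% of Rpl30, 41.4% of Rpl34 and 35.5% of Rps16 is shared. Over the 77 members the level per kb and the shared percentage had a Spearman's rho of 0.15, given as a description since genes share libraries and mapping. These low values are levels of counted reads, which need not be the levels of the mRNAs. The per-kb level of Rps20 (125 ± 11.8 CPM per kb) rests on an annotated transcript of 3706 bases and is low for that length.

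RP promoters were looked at because the ligand binds G-rich sequence and because the TOP tract lies at the transcription start. Of the 81 genes, 61 matched a RefSeq promoter window (GRCm38.p6, 250 bases before to 50 after the start), giving 73 windows. A run of at least 8 pyrimidines within 10 bases of the start was present in 39.7% of these windows and in 14.0% of all 32851 windows. Shorter runs were not counted, such as one of 4 bases in a window of Rpl22. A gene without a counted run can therefore still have a shorter tract. The letters CCGGAAG, searched on both strands, were present in 34.2% against 8.86%. A G-quadruplex motif, that is 4 runs of at least 3 G separated by 1 to 7 bases on either strand, was present in 12.3% of the RP windows against 18.6% of all windows. Start windows of Rpl22l1 and Rpl7l1, the paralogs called between doses, are shown with Rpl7a, which has the longest run among those listed, from 35 bases before to 25 after the start on the gene's strand, with the pyrimidine run in capitals.
Rpl22l1 (chr3:28805473-28805532, plus strand): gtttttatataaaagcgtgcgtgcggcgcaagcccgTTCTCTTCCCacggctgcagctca
Rpl7l1 (chr17:46782632-46782691, minus strand): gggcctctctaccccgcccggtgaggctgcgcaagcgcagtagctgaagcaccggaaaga
Rpl7a (chr2:26910772-26910831, plus strand): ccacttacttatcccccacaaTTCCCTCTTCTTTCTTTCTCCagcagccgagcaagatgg
Rpl22l1 has a run of 10 pyrimidines and Rpl7a one of 21, while the window of Rpl7l1 holds no run of that length.

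The G-quadruplex motif of the paralog Rpl36al, on the strand opposite to the gene, is shown as an example with the G runs in capitals.
Rpl36al (chr12:69184143-69184163): GGGGcGGGGcGGGGcggaGGG
The 6 tested members with a motif had median log2 fold changes of 0.14 at 2 µM against 0 µM, -0.03 at 10 µM against 0 µM and -0.15 at 10 µM against 2 µM. The 52 tested members without one had medians of 0.14, 0.06 and -0.07. Members with a pyrimidine run (28 genes) had medians of 0.14, 0.08 and -0.07, and those without (30 genes) 0.14, 0.02 and -0.09. No test was made of the differences between these groups.

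The first question was whether RHPS4 changed the amount of RP mRNA as a whole. RP genes took 4.7%, 3.92% and 3.92% of nuclear gene counts in the 3 untreated libraries. The shares at 2 µM were 4.76%, 4.47% and 4.33%, and those at 10 µM were 4.39% and 4.83%. The first untreated library lay within the range of the treated ones, and the other two untreated libraries lay below all of the treated ones. The first had the fewest counts of all libraries (10455965), and the other two had the most (21057338 and 26688121). The part of sequencing depth in these shares was not tested. The means were 4.18% ± 0.452 (SD, n = 3) at 0 µM, 4.52% ± 0.218 (n = 3) at 2 µM and 4.61% ± 0.31 (n = 2) at 10 µM, differences no larger than the spread between untreated libraries. In bulk samples, fewer cells of a type and less RNA per cell cannot be told apart.

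Large and small subunit mRNAs kept nearly the same proportion. The ratio of large to small subunit counts was 1.38, 1.37 and 1.36 untreated, 1.39, 1.36 and 1.38 at 2 µM, against 1.36 and 1.33 at 10 µM. Both 10 µM libraries lay below all untreated ones, and both also lay below every library at 2 µM, the higher of them by less than the spread between libraries at 2 µM. The mean was 1.371 ± 0.00608 at 0 µM and 1.341 ± 0.0205 at 10 µM, a difference of the order of the spread between the 2 libraries at 10 µM.

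**Figure D1:**
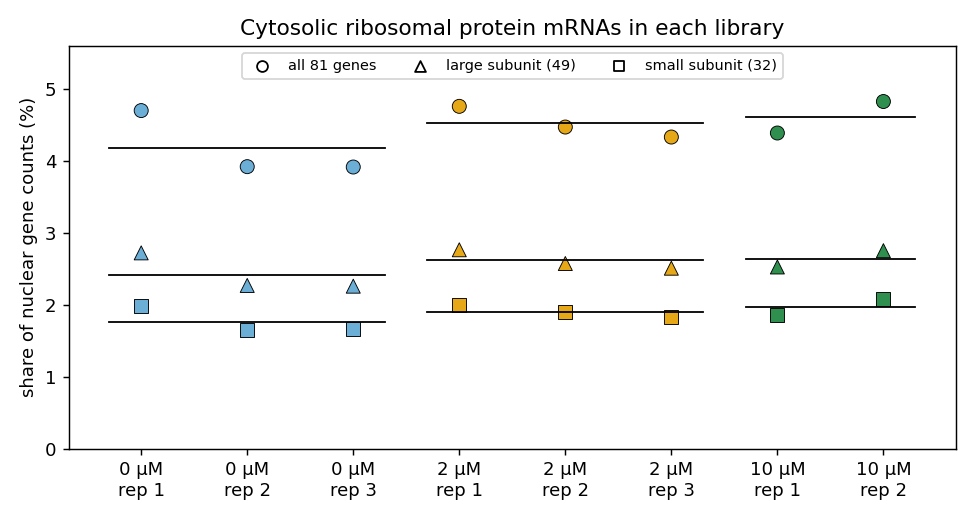
Share of nuclear gene counts (%) taken by all 81 RP genes (circles), the 49 large subunit genes (triangles) and the 32 small subunit genes (squares) in each of the 8 libraries, coloured by RHPS4 dose, with horizontal lines at the mean of each dose. The first untreated library (4.7%) lies with the treated libraries (4.33% to 4.83%), and the other two untreated libraries lie at 3.92%.

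At 2 µM against 0 µM the RP genes shifted by a small amount in 1 direction, and none passed the test. The median log2 fold change of the 77 members was 0.14 (0.14 large, 0.13 small subunit), against -0.01 over all 14296 tested genes, and 75 of 77 members were above 0 against 48.2% of all tested genes. Among 2118 other tested nuclear genes of at least 100 CPM, the median was 0.04 and 58.9% were above 0. The difference between these groups of genes was not tested. With the study's rule for differentially expressed genes (DEGs), a change of more than 1.5-fold with an adjusted p below 0.01, 0 of 77 members were called against 0.497% of all tested genes, and with an adjusted p under 0.05 alone again 0 of 77 against 4.16% (edgeR's quasi-likelihood test, Benjamini-Hochberg over all tested genes). DESeq2 called 0 members with the first rule and 1, Rpl7l1, with the second, where it called 5.1% of all genes. In edgeR, 6 of 77 members had an unadjusted p under 0.05, against 21.3% of all tested genes. In 6 members, Rpl7l1, Rpl15, Rpl22l1, Rps19, Rps27 and Rps27l, every 2 µM library was above every untreated one and in 0 members below, where 12.7% and 12.9% of all tested genes did so.

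This comparison turned on the first untreated library, the one with the fewest counts. Without it, 27 of the 77 members were called at an adjusted p under 0.05, and the median was 0.24. All 27 were higher at 2 µM (20 large and 7 small subunit genes). The untreated libraries then left were those with the most counts of all, and the part of depth was not tested. Of all 14629 genes then tested, 14.1% were called and 7.63% were called higher. The members called were led by Rpl7l1 (log2 fold change 0.43 ± 0.0732 SE, adjusted p = 0.00659), Rps27l (0.42, adjusted p = 0.0156) and Rpl36al (0.38, adjusted p = 0.0205), 3 paralogs, followed by the core proteins Rpl27 (0.29, adjusted p = 0.0224) and Rpl35 (0.36, adjusted p = 0.0256). With each other untreated library or each 2 µM library left out in turn, 0 members were called in this comparison. Of the genes then tested, only 0.519% to 1.99% were called.

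At 10 µM against 0 µM the RP genes as a group stayed near the middle of all genes, with 1 exception among the paralogs. The median log2 fold change was 0.04 against 0.02 over all tested genes, 0.004 for the large and 0.07 for the small subunit, and 47 members were above and 30 below 0. The DEG rule called 0 of 77 members against 3.09% of all tested genes, and the wider rule called 1, Rpl22l1, against 13.9%. An unadjusted p under 0.05 was reached by 2 of 77 members against 29.4% of all tested genes. DESeq2 also gave 0 and 1 calls with these rules, and with the wider one it called 14.0% of all genes. In 2 members, Rpl22l1 and Rps27, both 10 µM libraries were above all untreated ones (22.9% of all tested genes) and in 2, Rpl10a and Rpl21, below (20.0%). The median over members was -0.05 without the second 10 µM library and 0.10 without the first untreated one, so its sign rested on single libraries.

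Other abundant nuclear genes had lower values at this dose. The 2118 tested genes of at least 100 CPM that are no RP gene had a median log2 fold change of -0.12 at 10 µM against 0 µM, with 77 called higher and 355 lower. Over all 14296 tested genes, 974 were called higher and 1017 lower. The RP genes had the median of 0.04 above, with 1 of 77 called, upward. Against 2 µM, the same abundant genes had a median of -0.15 and the RP genes one of -0.09. No test was made of these differences between groups of genes.

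From 2 to 10 µM most RP genes had lower fitted values, and few passed the test. The median log2 fold change was -0.09 (-0.12 large, -0.06 small) against 0.03 over all tested genes, with 15 members above and 62 below 0. The DEG rule called 0 of 77 against 5.51%. The wider rule called 3 against 23.4%, Rpl22l1 higher and Rpl7l1 and Rpl30 lower, and 8 of 77 members had an unadjusted p under 0.05, against 36.5% of all tested genes. DESeq2 gave 0 calls with the DEG rule and 3 with the wider one, all lower. With the wider rule it called 23.8% of all genes in either direction. Rpl7l1 was among the 3, and Rpl22l1 (adjusted p = 0.0705) and Rpl30 (adjusted p = 0.0528) were not. In 1 member both 10 µM libraries were above all 2 µM libraries against 27.0% of all tested genes, and in 23 members below against 24.9%, a share near that of all genes. Scaling by total counts alone turned the median to 0.05, with the median of all genes at 0.16, and the median with a library left out ran from -0.20 (without the second 10 µM library) to -0.05 (without the first). Without the first untreated library 13 of 77 members were called against 29.0% of the genes then tested. Without the first or the second 2 µM library 0 were, against 16.0% and 14.2%.

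**Figure D2:**
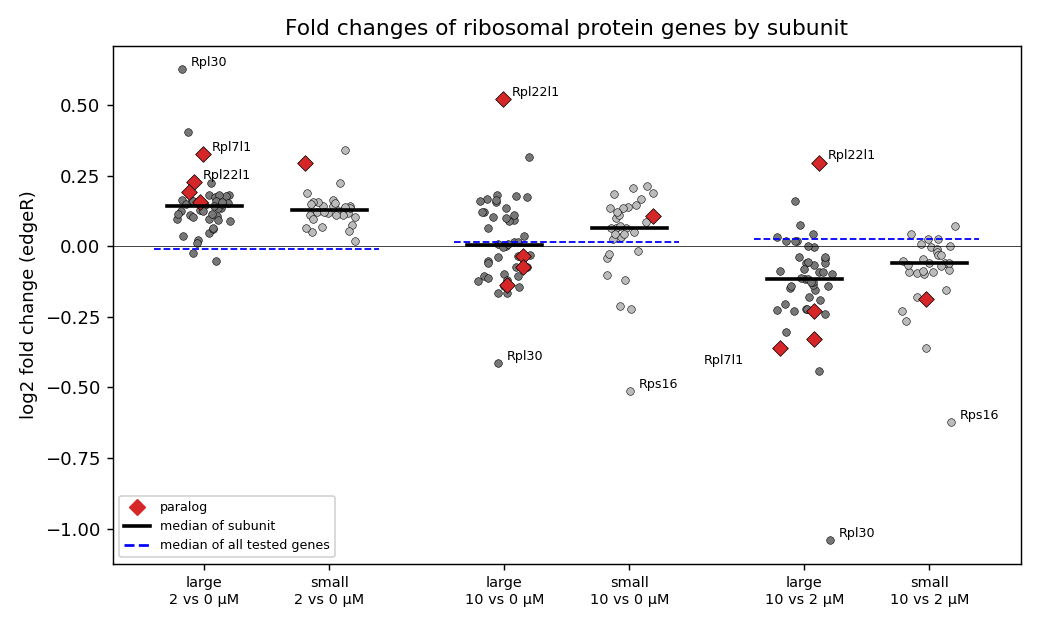
Log2 fold changes of the 77 tested RP genes from edgeR (vertical axis), split by subunit and by comparison, with paralogs as red diamonds, subunit medians as black bars and the median of all 14296 tested genes as dashed lines. At 2 µM against 0 µM both subunit medians (0.14 and 0.13) lie above that of all genes (-0.01), and at 10 µM Rpl22l1 lies above the other members.

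**Figure D3:**
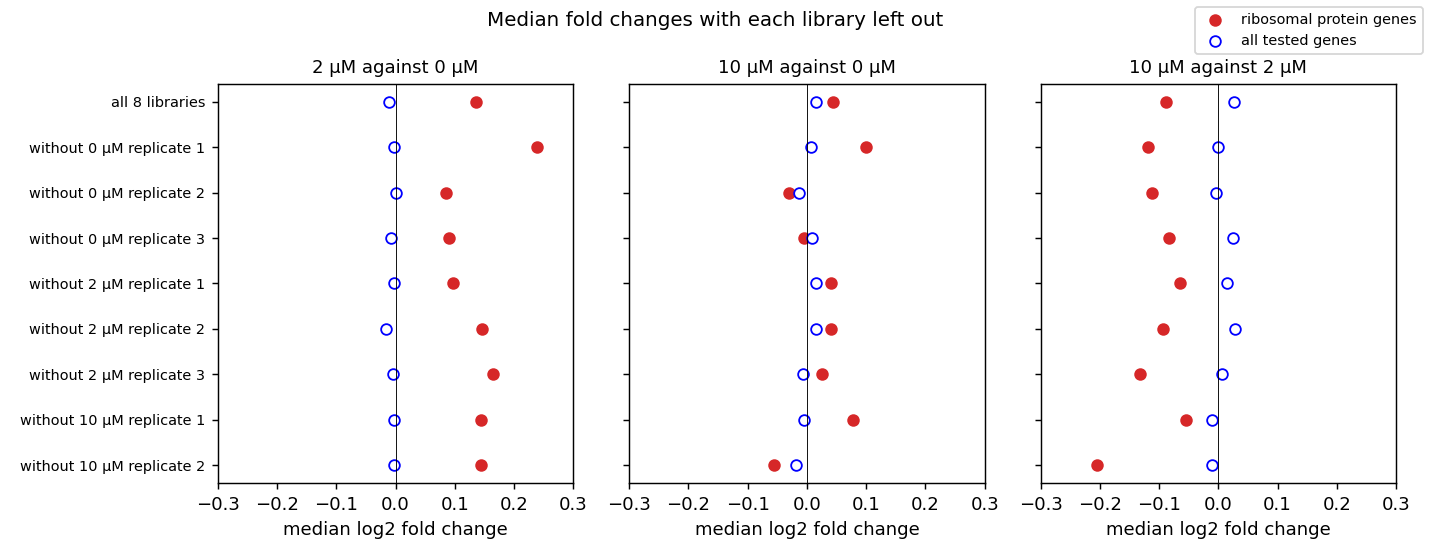
Median log2 fold change (horizontal axis) of the RP genes (filled) and of all tested genes (open) in the 3 comparisons, with all 8 libraries and with each left out in turn (rows). The RP median at 2 µM against 0 µM ranges from 0.09 to 0.24, that at 10 µM against 0 µM lies on both sides of 0, and that at 10 µM against 2 µM stays below 0.

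The clearest single response was that of Rpl22l1 (chr3:28805436-28807424 in mm10, plus strand), the paralog of the 60S protein Rpl22, which is known to hold Rpl22l1 expression down. Rpl22l1 measured 138, 118 and 132 CPM untreated, 147, 158 and 150 CPM at 2 µM, against 175 and 197 CPM at 10 µM. The 3 doses did not overlap, and the values were ordered by dose. Its mean was 129.8 ± 10.2 CPM (SD, n = 3) untreated and 186 ± 15.5 CPM (n = 2) at 10 µM. That is a log2 fold change of 0.52 ± 0.0872 (SE), or 1.43-fold, with an adjusted p of 0.00315 in edgeR. At 2 µM against 0 µM the value was 0.23 ± 0.0791 (adjusted p = 0.133), and at 10 µM against 2 µM it was 0.30 ± 0.0875 (adjusted p = 0.0317). The 10 µM against 0 µM call was lost without the second 10 µM library (0.41, adjusted p = 0.0612), and that against 2 µM without any 1 of the 2 µM or 10 µM libraries (adjusted p 0.0537 to 0.345). Of the sequence behind these counts, 49.6% of the 75-base stretches of Rpl22l1 occurred in 2 other annotated genes, against 7.0% for Rpl22.

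Rpl22 (chr4:152325742-152334071, plus strand) gave no such order. It measured 178, 146 and 159 CPM untreated, 183, 171 and 164 CPM at 2 µM, against 163 and 186 CPM at 10 µM, and the doses overlapped. Its log2 fold change was 0.12 ± 0.0981 at 10 µM against 0 µM (adjusted p = 0.448). The ratio of Rpl22l1 to Rpl22 counts within a library, which does not depend on scaling, was 0.778, 0.812 and 0.834 untreated, 0.807, 0.923 and 0.914 at 2 µM, against 1.07 and 1.06 at 10 µM. The paralog thus had fewer counts than Rpl22 in all libraries at 0 and 2 µM and slightly more in both at 10 µM. The log2 ratio differed by 0.40 between 10 and 0 µM (pooled SD 0.0427), and the two-sided exact permutation test gave p = 0.1, the smallest that 2 libraries against 3 allow, with an adjusted p of 0.333 over the 10 tests of ratios.

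For 3 of the other 4 paralogs compared, the ratio to the partner gene was lower in both 10 µM libraries than in any untreated one, and none of these differences passed the adjusted test. For Rpl39l (chr16:10170226-10174911), a paralog of the exit tunnel protein Rpl39 known from testis, the ratio to Rpl39 was 0.226, 0.262 and 0.228 untreated, 0.232, 0.248 and 0.229 at 2 µM, against 0.188 and 0.174 at 10 µM. Both 10 µM libraries were below all others. The log2 difference from 0 µM was -0.40 (pooled SD 0.109, exact permutation p = 0.1, adjusted p = 0.333), and at 2 µM it was -0.01 (exact permutation p = 1.0). Rpl39 itself measured 534, 366 and 427 CPM untreated and 495 and 605 CPM at 10 µM, and Rpl39l 121, 95.9 and 97.1 CPM and 93 and 105 CPM. Neither gene alone was called, with log2 fold changes of 0.32 ± 0.14 for Rpl39 (adjusted p = 0.159) and -0.07 ± 0.106 for Rpl39l (adjusted p = 0.686). None of the sequence of Rpl39l and 7.62% of that of Rpl39 is shared with other genes.

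Rpl36al (chr12:69182731-69184083), a near copy of the X-linked Rpl36a, had ratios to Rpl36a of 0.332, 0.297 and 0.28 untreated, 0.31, 0.311 and 0.308 at 2 µM, against 0.253 and 0.254 at 10 µM. Again both 10 µM libraries lay below all others, by a log2 difference of -0.26 from 0 µM (pooled SD 0.101, exact permutation p = 0.2, adjusted p = 0.4). Of the Rpl36a transcript, 84.6% is shared with pseudogenes, so its counts are uncertain. Rpl36al alone changed by -0.14 ± 0.146 from 0 to 10 µM (adjusted p = 0.571).

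Rpl7l1 (chr17:46773907-46782672), a paralog of Rpl7 that acts in the making of the 60S subunit, was highest at 2 µM. It measured 164, 135 and 132 CPM untreated, 183, 182 and 174 CPM at 2 µM, against 130 and 150 CPM at 10 µM. All 2 µM libraries were above all others. The log2 fold change was 0.33 ± 0.0914 at 2 µM against 0 µM (adjusted p = 0.0717), -0.03 ± 0.102 at 10 µM against 0 µM (adjusted p = 0.861) and -0.36 ± 0.103 at 10 µM against 2 µM (adjusted p = 0.0275). The last call was lost without the first or second 2 µM library or the first 10 µM library (adjusted p 0.0687 to 0.129), and with scaling by total counts alone (-0.22, adjusted p = 0.119). The first was gained without the first untreated library and with DESeq2 (0.33, adjusted p = 0.0392). Its ratio to Rpl7 was 0.199, 0.209 and 0.193 untreated, 0.224, 0.231 and 0.216 at 2 µM, against 0.186 and 0.178 at 10 µM, so the 3 doses did not overlap. The exact permutation p was 0.1 at 2 µM (log2 difference 0.16, adjusted p = 0.333) and 0.2 at 10 µM (-0.14, adjusted p = 0.4).

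Rps27l (chr9:66946086-66949516), the paralog of Rps27 and a known p53 target, measured 104, 80 and 85.2 CPM untreated, 110, 111 and 108 CPM at 2 µM, against 85.4 and 108 CPM at 10 µM. Every 2 µM library exceeded every untreated one, and the 10 µM libraries overlapped them. Its log2 fold change was 0.29 ± 0.108 at 2 µM (adjusted p = 0.15) and 0.11 ± 0.121 at 10 µM (adjusted p = 0.599). The ratio to Rps27 ran from 30.7 to 42.8 over all libraries and overlapped between doses, and its denominator is the poorly counted Rps27. The pairs of Rpl3l, Rpl10l and Rps4l were not compared, since these paralogs had under 10 counts in some libraries, which leaves 5 of 8 pairs.

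Among the core genes, the members with the largest fitted changes were also those with few counts or a wide spread. Rpl30, an L30e-family protein at the contact between subunits, measured 1.97, 1.14 and 1.39 CPM untreated, 2.56, 2.28 and 1.84 CPM at 2 µM, against 0.794 and 1.37 CPM at 10 µM. Its log2 fold change at 10 µM against 2 µM was -1.04 ± 0.323 (adjusted p = 0.0383), resting on 13 to 31 counts a library, and it was 0.63 ± 0.264 at 2 µM against 0 µM (adjusted p = 0.202). The call was lost without the third untreated, the first or second 2 µM or the first 10 µM library (adjusted p 0.0528 to 0.215), with the value at -0.72 without the last of these, and with scaling by total counts alone (-0.91, adjusted p = 0.0627). Rpl34 and Rps27 had the next highest values at 2 µM, 0.40 and 0.34, and neither passed the test (adjusted p 0.246 and 0.258). Rpl28 (-0.05) and Rpl29 (0.01) were among the lowest at 2 µM, both within their standard errors of 0.

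Rps16, whose tail reaches the decoding site of the 40S subunit, measured 66.9, 38 and 46.8 CPM untreated, 66.5, 51.7 and 44.2 CPM at 2 µM, against 41.5 and 28.3 CPM at 10 µM. The 10 µM libraries lay below all at 2 µM and overlapped those at 0 µM. Its spread between untreated libraries (a coefficient of variation, CV, of 29.3%) was the widest of the small subunit, and its log2 fold changes were -0.51 ± 0.238 at 10 µM against 0 µM (adjusted p = 0.178) and -0.62 ± 0.239 against 2 µM (adjusted p = 0.0819). Rps27a, made as a fusion to ubiquitin, measured 340 and 144 CPM in the 2 libraries at 10 µM, a CV of 57.1%, against 248, 306 and 294 CPM untreated. That split gave a log2 fold change of -0.22 ± 0.28 (adjusted p = 0.638), which turned to 0.24 without the second 10 µM library. For comparison, the median CV of the large subunit genes was 12.4% at 0 µM, 5.36% at 2 µM and 8.47% at 10 µM, and that of the small subunit genes 11.2%, 4.95% and 10.1%.

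Rps3, at the mRNA entry of the 40S subunit, was among the 3 highest at 10 µM against 0 µM with Rpl22l1 and Rpl39, at 765, 609 and 609 CPM untreated and 695 and 839 CPM at 10 µM (log2 fold change 0.22 ± 0.118, adjusted p = 0.251). The doses overlapped. Rpl5 and Rpl11, which with 5S rRNA bind the p53 ligase Mdm2, had log2 fold changes of 0.04 (adjusted p = 0.841) and -0.08 (adjusted p = 0.675) at 10 µM against 0 µM. Rps6, the target of the S6 kinases, had 0.11 at 2 µM and 0.10 at 10 µM (adjusted p 0.529 and 0.561). The highest member from 2 to 10 µM after Rpl22l1 and Rpl39 (0.16) was Rpl13a (0.08, adjusted p = 0.661).

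Of the cytosolic RP genes that the symbol pattern leaves out, 5 are given here: the stalk proteins Rplp0, Rplp1 and Rplp2, the 40S protein Rpsa, and Fau, a fusion of a ubiquitin-like protein to a 40S protein. Their median log2 fold changes were 0.11, 0.07 and -0.04 in the 3 comparisons (2 against 0, 10 against 0 and 10 against 2 µM), all within -0.19 to 0.15, and 0 of 5 were called by edgeR with either rule, with 0 at an unadjusted p under 0.05 and 0 called by DESeq2. Spearman's rho of the log2 fold change with GC content was between -0.17 and -0.14, with transcript length between -0.05 and 0.13 and with the shared percentage between -0.08 and -0.05 (77 genes, which share libraries and are not independent). The 61 members with transcripts of up to 1 kb had a median of 0.14 at 2 µM, against 0.05 for 1265 other tested genes of that length and -0.02 for 12417 longer ones.

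Genes that accompany RP synthesis were described from lists of fixed membership. Of 19 other TOP mRNAs and translation factors, 0 were called at 2 µM against 0 µM (4 at an unadjusted p under 0.05, and 0 by DESeq2), against 4.16% of all tested genes. At 10 µM against 0 µM, 1 was called lower, where 13.9% of all tested genes were called in either direction. At 10 µM against 2 µM, 4 were called lower, where 11.9% of all tested genes were called lower. These were Nap1l1, a histone chaperone (-0.45, adjusted p = 0.0136), Npm1, a nucleolar chaperone (-0.44, adjusted p = 0.042), and the translation factors Eef1d (-0.35, adjusted p = 0.0311) and Eif3l (-0.34, adjusted p = 0.0241). Nap1l1 was the 1 gene lower at 10 µM against 0 µM (-0.48, adjusted p = 0.0153). Each of these 5 calls was lost with at least 1 library left out: the 4 from 2 to 10 µM with the second 10 µM library for Nap1l1 (adjusted p = 0.105) and with the first 10 µM, the first 2 µM or the second 2 µM library for the other 3, among others (adjusted p 0.0673 to 0.149). Scaling by total counts alone left 0 of the 4 calls and a list median of 0.08, below the 0.16 of all genes.

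Chaperones and assembly factors of RPs had lower values at 10 µM than at 2 µM. They were listed together with Mdm2 and Trp53, p53 pathway partners and not such factors, which makes 8 genes. The list median was 0.235 at 2 µM against 0 µM and -0.227 at 10 µM against 0 µM. From 2 to 10 µM it was -0.45, against 0.03 over all tested genes, so this value spans a higher median at 2 µM and a lower one at 10 µM. All 8 had values below 0 from 2 to 10 µM. Of the 8, 7 were called lower there, where 11.9% of all tested genes were called lower. The 6 factors among them were Rrs1 (-0.55, adjusted p = 0.00454), which brings Rpl5 and Rpl11 into the pre-60S particle, Nip7 (-0.46, adjusted p = 0.00346), Tsr2, the escort of Rps26 (-0.46, adjusted p = 0.0159), Bccip (-0.44, adjusted p = 0.0299), Heatr3, an importer of Rpl5 (-0.43, adjusted p = 0.00465), and Ltv1 (-0.37, adjusted p = 0.0349). Nip7 alone was called at 2 µM against 0 µM, where 4.16% of all tested genes were called. It measured 101, 86.4 and 89 CPM untreated and 126, 122 and 119 CPM at 2 µM (log2 fold change 0.41 ± 0.0765, adjusted p = 0.0181). Trp53 was the 1 gene called at 10 µM against 0 µM, where 13.9% of all tested genes were called. It measured 93.2, 96.9 and 83.2 CPM untreated and 68 and 55.1 CPM at 10 µM (-0.56 ± 0.104, adjusted p = 0.00522). The calls of Rrs1, Nip7, Heatr3 and Trp53 from 2 to 10 µM were kept with each library left out in turn. Those of Tsr2, Bccip and Ltv1 were lost without the first 2 µM library and without 1 or 2 others (adjusted p 0.0529 to 0.18). The call of Nip7 at 2 µM was lost without the second untreated, the third untreated or the first or second 2 µM library (adjusted p 0.0837 to 0.108), and that of Trp53 against 0 µM without the second 10 µM library (adjusted p = 0.0526). With scaling by total counts alone 4 of the 7 calls from 2 to 10 µM were left.

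Regulators of growth and of TOP translation split by gene. Of 17, 2 were higher and 1 lower at 10 µM against 0 µM, a share near the 13.9% of all tested genes: Eif4ebp1, the mTOR-controlled brake on cap-dependent translation, rose from 100, 94 and 93.2 CPM to 163 and 162 CPM (0.76 ± 0.0815, adjusted p = 0.000159) and was a DEG. Rps6kb2, an S6 kinase, also rose (0.38, adjusted p = 0.0486), and Eif4ebp2 fell (-1.14, adjusted p = 0.022). From 2 to 10 µM, 2 were higher, Eif4ebp1 (0.86, adjusted p = 5.29e-05) and Tia1, a binder of TOP mRNAs under stress (0.26, adjusted p = 0.0399). In the same comparison 6 were lower, Larp4 (-0.42), Cnbp (-0.40), Larp1 (-0.39), Ssb (-0.38), Mlst8 (-0.33) and Rps6kb1 (-0.30), with adjusted p between 0.00481 and 0.0451. Over all tested genes, 11.9% were called lower there and 23.4% in either direction. Cnbp, which binds TOP mRNAs, was the 1 gene called at 2 µM against 0 µM (0.38, adjusted p = 0.0493), where 4.16% of all tested genes were called. The calls of Eif4ebp1 in both comparisons and of Larp4 were kept with each library left out in turn. Those of Rps6kb2 were lost with any library left out (adjusted p 0.0532 to 0.307), those of Tia1 and of Cnbp at 2 µM with any but the first untreated one (adjusted p 0.051 to 0.254), and those of Eif4ebp2 without the second untreated, the third untreated or the second 10 µM library (adjusted p 0.0618 to 0.164). The other 5 lower calls were each lost without 2 to 5 of the libraries, the second 2 µM library among them in each case (adjusted p 0.0514 to 0.203). Scaling by total counts alone left 1 of the 6 lower calls.

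Of 10 known p53 targets, kept as background to Rps27l, 2 were called lower at 2 µM against 0 µM, Cdkn1a (-1.41, adjusted p = 0.0398) and Trp53inp1 (-1.04, adjusted p = 0.00247). Over all tested genes, 4.16% were called in this comparison, 13.9% at 10 µM against 0 µM and 23.4% at 10 µM against 2 µM. Between 10 and 0 µM, Sesn2 (1.53, adjusted p = 1.79e-05) and Trp53inp1 (0.73, adjusted p = 0.00442) rose and Phlda3 fell (-0.39, adjusted p = 0.0232). From 2 to 10 µM, Trp53inp1 (1.77, adjusted p = 1.33e-05), Sesn2 (1.39, adjusted p = 2.44e-05) and Bbc3 (1.04, adjusted p = 0.0229) rose and Phlda3 fell (-0.37, adjusted p = 0.0213). The values of Cdkn1a and Bbc3 rested on few counts. Cdkn1a had 24, 84 and 133 counts untreated and 9, 16 and 40 at 2 µM. Bbc3 had 18, 33 and 28 counts at 2 µM and 55 and 67 at 10 µM. The calls of Sesn2, and those of Trp53inp1 other than at 10 µM against 0 µM, were kept with each library left out in turn. Those of Cdkn1a, Bbc3 and Phlda3 were each lost without 2 to 6 of the libraries (adjusted p 0.052 to 0.193), and that of Trp53inp1 at 10 µM against 0 µM without the second 10 µM library (adjusted p = 0.0514). The list thus had calls in both directions, and Rps27l was called in none of the 3 comparisons.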

How the data were processed

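The 8 libraries were made from total RNA depleted of rRNA (TruSeq Stranded). Per the labels, the authors trimmed reads with Trim Galore and cutadapt, aligned them to mm10 with STAR 2.5.2a and deposited raw read counts per gene from featureCounts. The annotation and the strand setting are not given in the sources used here, so reads of overlapping genes cannot always be told apart (33 of 81 members overlap another annotated gene on their strand). Many RP genes have pseudogene copies, and the study's methods describe the counts as those of uniquely mapped fragments.

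The counts were fitted with edgeR 4.0.16 (R 4.3.3): TMM scaling, filterByExpr, quasi-likelihood F test over all 8 libraries with dose as the only factor, and Benjamini-Hochberg adjustment over the 14296 genes tested. Standard errors come from the log2 fold change and its F statistic. CPM values carry the TMM scaling, and CPM per kb divides by the length of 1 protein-coding GENCODE vM21 transcript a gene (mm10), which all 81 members matched by symbol. Sharing was the percentage of a transcript's 75-base stretches found in transcripts of other genes. Paralog ratios had 0.5 added to each count and were compared by two-sided exact permutation tests on the absolute difference of means, whose smallest p is 0.1 in both comparisons. Promoter sequences are RefSeq's (GRCm38.p6).

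Named were the members called by either rule, both genes of each paralog pair, the 5 highest and 5 lowest members per kb in each subunit, the 3 largest rises and falls in each comparison, the RP genes outside the symbol pattern and called genes of the context lists, except items not reported here. Rpl5, Rpl11, Rps6, Rps19, Rpl15, Rpl10a, Rpl21, Rpl7a, Rpl26, Rpl27 and Rpl35 were named after their values were seen. Members, lists and tests were chosen with earlier results of these data known. Alternatives were other scalings, DESeq2 1.42.0, other filters, only the groups compared, a replicate block and each library left out. Replicate numbers were not taken as pairs in the main fit, since no shared origin is stated. Deviations of libraries with the same number correlated at -0.145 to 0.199. Libraries with different numbers were not compared, so whether the numbers pair libraries was not tested.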

Additional observations from a re-analysis of the deposited data

How the results depend on the processing

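Of the results that answer a comparison, 138 alternatives kept the value within the limits set and 31 moved it. At 2 µM against 0 µM, members at an adjusted p under 0.05 numbered 0, against 4 with total counts (9.56% of all genes) and 1 with DESeq2 (5.1%). With an untreated or 2 µM library left out they numbered 0 to 27 (0.519% to 14.1% of all genes), 27 without the first untreated one. At 10 µM against 0 µM, total counts gave 1 DEG, 31 of 77 members called at an adjusted p under 0.05 (28.6% of all genes) and a median of 0.264 (all genes 0.231). Calls ran from 1 to 4 with an untreated or 2 µM library left out (7.53% to 19.4% of all genes). At 10 µM against 2 µM, calls numbered 5 with RLE (23.8% of all genes), nuclear TMM (23.7%), no filter (14.1%) or 10 counts everywhere (28.5%). They numbered 7 with only these groups (25.4%), 1 with total counts (25.2%) and 0 to 13 with an untreated or 2 µM library left out (14.2% to 29.0%). DEGs numbered 0 to 1, and total counts gave a median of 0.048. The cause was not tested.

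Replicate numbers share no stated origin. With the replicate block, 2 of 77 members were called at 10 µM against 0 µM, where 1577 of all 14296 tested genes were called. At 10 µM against 2 µM it gave 8 calls and 1 DEG among the members, where 3159 of all 14296 tested genes were called. The block lost the calls of Rpl22l1 (adjusted p = 0.0554) and Rpl30 (adjusted p = 0.0527) at 10 µM against 2 µM.

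The RP share over all genes, mitochondrial ones included, was 3.605%, 4.161% and 4.341% at 0, 2 and 10 µM. Without the most abundant member of each subunit the share of nuclear gene counts was 3.875%, 4.19% and 4.279%, and the large to small ratio was 1.423, 1.424 and 1.397 at 0, 2 and 10 µM.

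Reversals were 36, all of values that had not passed a test. At 2 µM against 0 µM, total counts gave Rpl28 0.03. Between 10 and 0 µM they gave Rpl7l1 0.185, Rpl36al 0.082 and Rpl39l 0.145, and at 10 µM against 2 µM Rpl7 0.077 and Rpl36a 0.097. Rpl22 at 10 µM against 2 µM turned with DESeq2 (-0.022) and no filter (-0.024). With a library left out, the ranges were as follows. At 2 µM against 0 µM Rpl28 ran from -0.131 to 0.088 and Rpl29 from -0.057 to 0.098. Between 10 and 0 µM Rps27a ran from -1.001 to 0.237, Rpl7l1 from -0.166 to 0.043, Rpl7 from -0.064 to 0.203, Rpl22 from -0.007 to 0.185, Rpl36al from -0.244 to 0.016, Rpl39l from -0.192 to 0.012 and Rps27l from -0.097 to 0.234. Between 10 and 2 µM Rpl13a ran from -0.103 to 0.162, Rpl39 from -0.032 to 0.257, Rpl7 from -0.238 to 0.029, Rpl22 from -0.119 to 0.073 and Rpl36a from -0.156 to 0.035. Log2 ratios at 2 µM ran from -0.019 to 0.102 for Rpl36al, -0.049 to 0.059 for Rpl39l and -0.138 to 0.073 for Rps27l, and at 10 µM from -0.225 to 0.04 for Rps27l.

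Leaving out a 10 µM library leaves 1, assumed to vary like the other groups. At 13 to 98 counts a library, Rpl30, Rpl34 and Rps27 allow only large differences to be seen.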
